A study of Mus musculus with 9 samples.

Results

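The 35 genes described here encode the machinery of cell division, from the start of DNA replication to the separation of daughter cells. They were taken from a list of symbols matched to Ensembl identifiers, and all 35 were found among the 51912 genes of each of 9 deposited tables. Cells that enter S phase make cyclin E, load and fire the MCM helicase and raise the supply of deoxynucleotides. Entry into mitosis then depends on Cdk1 with cyclins A and B and on the aurora and polo kinases, while centromere proteins, motor proteins and the anaphase-promoting complex part the chromosomes. In the adult hippocampus mature neurons do not divide, and the dividing cells known there are neural progenitors, oligodendrocyte precursors and cells of the immune system.

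The samples were fluorescent cells sorted from the hippocampus of male CamkⅡα-cre (C57BL/6) mice, in which the Camk2a promoter drives Cre recombinase in excitatory neurons of the forebrain. All libraries came from mice given rAAV5-DIO-mCherry, a viral vector that makes the red fluorescent protein mCherry where Cre is active. The doses were 2.88e+08, 2.88e+09 and 2.88e+10 vector genomes, the lowest of which served as control, and tissue was taken 3 weeks after injection and digested with papain. The labels give neither the age of the mice nor a group without vector. The question of the study was how dose affects the transcriptome of pyramidal neurons, but the labels tie no library to a dose. The libraries are therefore named S1001 to S1009, with the heading of each deposited table: H1 to H3 for S1001 to S1003, M1 to M3 for S1004 to S1006 and L1 to L3 for S1007 to S1009. What the letters stand for is not stated, so they serve here as names only, and no dose, mean over a letter or test is attached to them.

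Each library held between 12136830 and 19151596 counts, and 3 counts, the number that a count of 0 allows at 95% confidence, corresponded to 0.158 to 0.246 CPM (counts per 1e+06 counts of the library, after scaling). These limits, like all counting intervals here, cover counting error only. The 3 H tables resembled each other far more than other tables did. Their pairwise chi-square over genes was 2.67 to 5.14 times its degrees of freedom, against 24.3 to 33.6 within the M tables, 27.2 to 38.9 within the L tables and 83.3 to 184 between tables of different letters. All pairs differed by more than sampling noise and none was merged, but no label says which animals a library came from. Between 23214 and 25478 genes had at least 1 count in the H and M tables, and 17906 to 20255 in the L tables, although the totals of the L tables (15371545 to 16937257) exceeded those of the H tables (12136830 to 13105465).

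Pooled over all roles, the genes of mitosis had their lowest sums in the L tables, whereas the sum of the genes of DNA replication showed no such order. Summed over the 22 members that act outside replication and S phase, the level was 43.0, 47.6 and 51.7 CPM in the H tables, 51.5, 47.8 and 47.6 in the M tables and 11.6, 16.0 and 11.8 in the L tables. The L tables thus lay below all others, with exact Poisson 95% intervals between 9.97 and 18.0 CPM, against 39.4 to 55.7 CPM in the other 6. Not every mitotic role showed this. The sums of the checkpoint role (5.24 CPM in S1009) and of spindle and cytokinesis (5.36 CPM in S1008) overlapped the M tables. Gene by gene, the L tables lay below all others in 6 of the 14 such members whose mean reached 1 CPM, against 13.6% of all genes. Members such as Cdk1 and Top2a reached that mean only through the libraries where they were high, so this count supports nothing further. Summed over the 13 members of replication and S phase, the level was 207, 199.6 and 214 CPM in the H tables, 209, 188 and 216 in the M tables and 196, 210.0 and 202 in the L tables. Here the tables of the 3 letters overlapped. Pcna alone made up 50.0% (S1005) to 60.9% (S1009) of this sum, which thus says little of the other replication members. Among them, the 6 MCM genes summed to 49.6 to 49.7 CPM in the H tables and to 26.9 to 39.2 CPM elsewhere. In cells sorted in bulk, fewer cells of a type and less RNA per cell cannot be told apart.

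**Figure D1:**
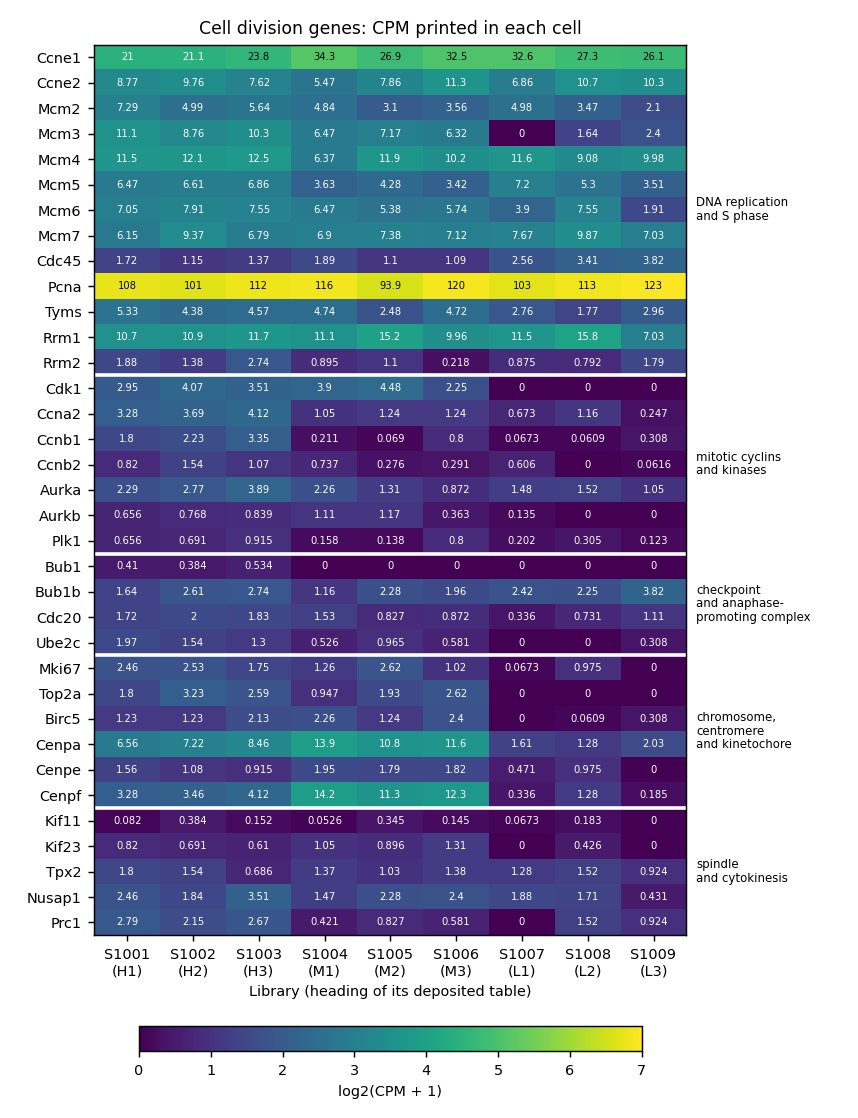
Level of each of the 35 cell division genes (rows, grouped by role) in each of the 9 libraries (columns, with the heading of the deposited table). The number in a cell is CPM and its colour is log2(CPM + 1). Cells at 0 are found mostly in the L tables among the mitotic genes, while Pcna and Ccne1 have over 20 CPM in every library.

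In 27 of the 35 members the mean over libraries reached 1 CPM. The other 8 were Ccnb1, Ccnb2, Aurkb, Plk1, Bub1, Ube2c, Kif11 and Kif23. The spread of a gene was taken on the log2(CPM + 1) scale after dropping its highest and its lowest library, as the range over the remaining 7, and was read against 2-fold, so that no single library sets it. By this measure 10 of the 27 members (37.0%) passed 2-fold, namely Mcm3, Cdc45, Cdk1, Ccna2, Mki67, Top2a, Birc5, Cenpa, Cenpf and Prc1. Among all 14787 genes with the same mean, 3911 (26.4%) passed, and the median spread was 0.80 for the 27 members and 0.66 for all genes. Of the 10, 8 act outside replication, where 14 members had the required mean, and 2 belong to the 13 members of replication. Members such as Cdk1 and Top2a reached the required mean only through the libraries where they were high, so these counts describe the table and support nothing further. The pseudocount of 1 CPM compresses the spread of low genes, and with 5 CPM only Mcm3, Cenpa and Cenpf of the 27 passed 2-fold, no larger a share than the 13.2% of all genes that did.

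In 15 of the 27 members, the 3 tables of some letter lay wholly above or wholly below the other 6. The share of all genes with any letter apart was not counted, so this number has no background and each pattern is read separately. The L tables lay below all others in 7 of the 27 members (Mcm3, Cdk1, Mki67, Top2a, Birc5, Cenpa and Cenpf), against 13.6% of all genes. The H tables lay above all others in 6 members (Mcm2, Mcm3, Ccna2, Aurka, Cdc20 and Prc1), against 12.7% of all genes. The M tables lay above the rest in 3 members (Cenpa, Cenpe and Cenpf), against 4.72% of all genes. The opposite patterns were met once or not at all: the L tables were highest for Cdc45 (10.4% of all genes), the H tables lowest for Ccne1 (11.8%) and the M tables lowest for no member (6.05%).

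**Figure D2:**
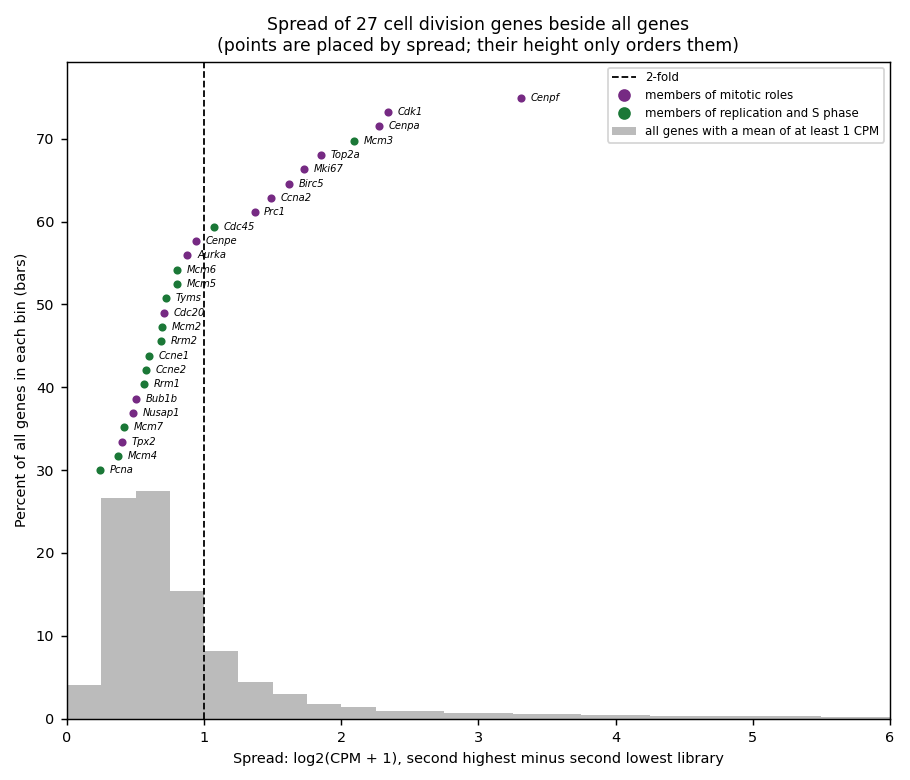
Spread over the 9 libraries of the 27 members whose mean reached 1 CPM (points, placed by their spread on the x axis, in log2 units; their height only sorts them) over the distribution of all 14787 such genes (bars, percent of genes in bins of 0.25). The dashed line marks 2-fold; 10 members lie to its right, of which 8 have mitotic roles, and Cenpf lies farthest at 3.31.

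The first role is replication and S phase. Cyclin E1 and cyclin E2, encoded by Ccne1 and Ccne2, activate Cdk2 at the entry to S phase. Ccne1 had 21.0, 21.1 and 23.8 CPM in the H tables, 34.3, 26.9 and 32.5 in the M tables and 32.6, 27.3 and 26.1 in the L tables. The H tables lay just below the rest, by less than 2-fold. Ccne2 ranged from 5.47 CPM in S1004 to 11.3 CPM in S1006 with a median of 8.77 CPM, and its tables overlapped. Exons of Ccne2 overlap Ints8 on the opposite strand, and no source used here says whether counting used strand.

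The MCM proteins 2 to 7 form the ring helicase that unwinds DNA at the replication fork. Summed over the 6 genes, the level was 49.6, 49.7 and 49.6 CPM in the H tables, 34.7, 39.2 and 36.4 in the M tables and 35.4, 36.9 and 26.9 in the L tables. The H tables were nearly equal and above the other 6, and the lowest library was S1009. Mcm3 (ENSMUSG00000041859, chr1:20802968-20820312, minus strand) had the widest spread of the 6, with 11.1, 8.76 and 10.3 CPM in the H tables, 6.47, 7.17 and 6.32 in the M tables and 0, 1.64 and 2.40 in the L tables. S1007 held no count of Mcm3, and the L tables lay below all others, the M tables between and the H tables on top (2.09 on the log2 scale). No other MCM gene passed 2-fold. Mcm2 had 7.29, 4.99 and 5.64 CPM in the H tables, 4.84, 3.10 and 3.56 in the M tables and 4.98, 3.47 and 2.10 in the L tables, with the H tables above the rest by a narrow margin.

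The remaining MCM genes showed no such order. Mcm4 ranged from 6.37 CPM in S1004 to 12.5 CPM in S1003, with a median of 11.5 CPM, and 8 of its 9 libraries had at least 9.08 CPM. Mcm5 lay between 3.42 CPM in S1006 and 7.20 CPM in S1007, and Mcm6 between 1.91 CPM in S1009 and 7.91 CPM in S1002. Mcm7 was among the steadiest members, at 6.15 to 9.87 CPM, although its exons overlap Ap4m1 and Cops6 on the opposite strand and Mir25 and Mir93 on its own.

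The 300 bases around the annotated start of Mcm3 are shown because Mcm3 varied most among the replication genes, with capitals for the letters of E2F, the family of factors known to act on S-phase genes. The window runs from 250 bases before to 50 bases after the start (chr1:20820263-20820562, minus strand, GRCm38.p6, which is mm10; RefSeq). Pcna is shown beside it (chr2:132253131-132253430, minus strand) as the member with the smallest spread, with capitals for CCAAT, the letters bound by NF-Y.

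Mcm3: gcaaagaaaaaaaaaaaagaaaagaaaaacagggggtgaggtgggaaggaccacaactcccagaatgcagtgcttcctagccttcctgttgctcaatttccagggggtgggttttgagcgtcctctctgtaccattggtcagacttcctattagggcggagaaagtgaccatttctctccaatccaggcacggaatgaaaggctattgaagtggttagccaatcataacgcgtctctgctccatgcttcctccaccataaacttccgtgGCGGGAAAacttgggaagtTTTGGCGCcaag
Pcna: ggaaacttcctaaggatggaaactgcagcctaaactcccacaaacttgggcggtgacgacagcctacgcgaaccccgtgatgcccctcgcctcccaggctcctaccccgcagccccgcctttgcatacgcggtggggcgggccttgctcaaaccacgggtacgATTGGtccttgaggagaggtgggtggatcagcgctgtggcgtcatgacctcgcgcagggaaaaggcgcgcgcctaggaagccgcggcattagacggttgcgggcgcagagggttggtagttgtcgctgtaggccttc

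Mcm3 has 2 E2F matches, both downstream of the start, and Pcna has none in this window. E2F was searched as TTTGGCGC, TTTCGCGC, TTTCCCGC or TTTGCCGC on both strands. Among the 11 replication members with a window, 4 held a match (Mcm3, Mcm5, Mcm6 and Mcm7), or 36.4%, against 2.3% of all 32851 promoter windows of this length. A match is a description of letters, and neither a match nor its absence says whether a factor binds.

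Pcna, the sliding clamp that tethers DNA polymerase and also serves in DNA repair, was by far the most abundant member. It had 108, 101 and 112 CPM in the H tables, 116, 93.9 and 119.9 in the M tables and 103, 113 and 123 in the L tables, a spread of 0.24. No letter stood apart, and Pcna supplied 39.9% of the members' summed level in S1005 and 57.6% in S1009. Pcna has the pseudogenes Pcna-ps1 and Pcna-ps2, and no source used here says how reads matching several genes were counted. Per length, in the authors' FPKM, its median was 46.8, against 10.3 for Ccne1, 3.14 for Mcm4 and at most 1.24 for any mitotic member, which was Cenpa.

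Cdc45, the partner of MCM in the active helicase, had 1.72, 1.15 and 1.37 CPM in the H tables, 1.89, 1.10 and 1.09 in the M tables and 2.56, 3.41 and 3.82 in the L tables. All 3 L tables were highest, yet the spread of 1.07 was 0.76 without S1008 or without S1009. Cdc45 (ENSMUSG00000000028, chr16:18780447-18811987, minus strand) overlaps exons of Ufd1 on the opposite strand.

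The enzymes of nucleotide supply completed the set, with Tyms, which makes thymidylate, and Rrm1 and Rrm2, the subunits of ribonucleotide reductase. Rrm1 ranged from 7.03 CPM in S1009 to 15.8 CPM in S1008 with a median of 11.1 CPM. Rrm2, the subunit made mainly in S phase, ranged from 0.218 CPM in S1006 to 2.74 CPM in S1003. Tyms ranged from 1.77 CPM in S1008 to 5.33 CPM in S1001. None of these passed 2-fold, and no letter was separated from the others. Tyms has a pseudogene, Tyms-ps.

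The mitotic cyclins and kinases, 7 genes, summed to 12.5, 15.7 and 17.7 CPM in the H tables, 9.42, 8.69 and 6.61 in the M tables and 3.16, 3.05 and 1.79 in the L tables. The 3 letters did not overlap, with H highest and L lowest. Cdk1 (ENSMUSG00000019942, chr10:69335146-69352938, minus strand), the kinase that drives entry into mitosis, had 2.95, 4.07 and 3.51 CPM in the H tables, 3.90, 4.48 and 2.25 in the M tables and 0 in all 3 L tables. Its counts were 36, 53, 46, 74, 65, 31, 0, 0 and 0 in S1001 to S1009. No read of Cdk1 was counted in any L table, where 3 counts would have been 0.183 to 0.202 CPM, and the H and M tables overlapped. Its spread of 2.34 rests on a pseudocount and is no bound on the fold difference.

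This absence was set beside all genes. A gene with 0 counts in all 3 L tables and at least 10 counts in each of the other 6 was met 106 times among the 14787 genes (0.717%), and Cdk1 and Top2a were the members among them. This rule was chosen after their values had been seen.

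Ccna2, cyclin A2, acts with Cdk2 and Cdk1 from S phase to early mitosis. It had 3.28, 3.69 and 4.12 CPM in the H tables, 1.05, 1.24 and 1.24 in the M tables and 0.673, 1.16 and 0.247 in the L tables. The H tables stood above the other 6, while the M and L tables overlapped. The spread of 1.49 was 0.42 without S1002 and S1003 together. The 1 H table then left is dropped as the highest library, so this fall follows from the measure. Exons of Ccna2 (ENSMUSG00000027715, chr3:36564865-36572150, minus strand) overlap Exosc9 on the opposite strand.

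The B-type cyclins, which pair with Cdk1 in mitosis, were below the required mean. Ccnb1 had counts of 22, 29, 44, 4, 1, 11, 1, 1 and 5 in S1001 to S1009, and Ccnb2 had 10, 20, 14, 14, 4, 4, 9, 0 and 1. In CPM both had their H tables above the rest, for Ccnb2 by a margin of few counts (0.820 CPM in S1001, 0.737 CPM in S1004), and the M and L tables overlapped. For both, a named pseudogene (Ccnb1-ps and Ccnb2-ps) could share reads.

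Aurka, the aurora kinase of the spindle poles, had 2.29, 2.77 and 3.89 CPM in the H tables, 2.26, 1.31 and 0.872 in the M tables and 1.48, 1.52 and 1.05 in the L tables. Its H tables were above the rest, but by less than 2-fold, and it was detected in every library. Aurkb, the aurora kinase of the centromere, had counts of 8, 10, 11, 21, 17, 5, 2, 0 and 0 and was lowest in the L tables. Plk1, the polo kinase, had between 2 and 12 counts in each library, in no order of letters. Gm44985 overlaps Plk1 on the opposite strand.

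The window of Cdk1 (chr10:69352863-69353162, minus strand) is shown because Cdk1 was not counted in any L table. Capitals mark the cell cycle genes homology region (CHR), the letters known to be bound by the MuvB complexes that repress or activate mitotic genes.

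Cdk1: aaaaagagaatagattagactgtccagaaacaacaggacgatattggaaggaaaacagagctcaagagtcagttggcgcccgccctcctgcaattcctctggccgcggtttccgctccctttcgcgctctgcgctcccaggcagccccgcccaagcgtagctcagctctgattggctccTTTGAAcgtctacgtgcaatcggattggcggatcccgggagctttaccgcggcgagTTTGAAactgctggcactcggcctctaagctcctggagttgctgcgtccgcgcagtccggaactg

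Cdk1 holds 2 CHR matches, 71 and 15 bases before the start, and 1 E2F and 3 CCAAT matches that are not capitalised. CHR was searched as TTTGAA or TTCGAA and CCAAT by its own letters, on both strands, and no CHR match overlapped another motif in any member. A window was matched by symbol for 30 of the 35 members, and Aurkb, Ccna2, Ccne2, Mcm4 and Tpx2 had none in the table used. CHR was found in 15 of the 19 matched members outside replication (78.9%), in 3 of the 11 replication members (27.3%) and in 19.2% of all 32851 windows. CCAAT was found in 26 of the 30 members (86.7%) and in 37.4% of all windows. Both motifs together were found in 7.5% of all windows.

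**Figure D3:**
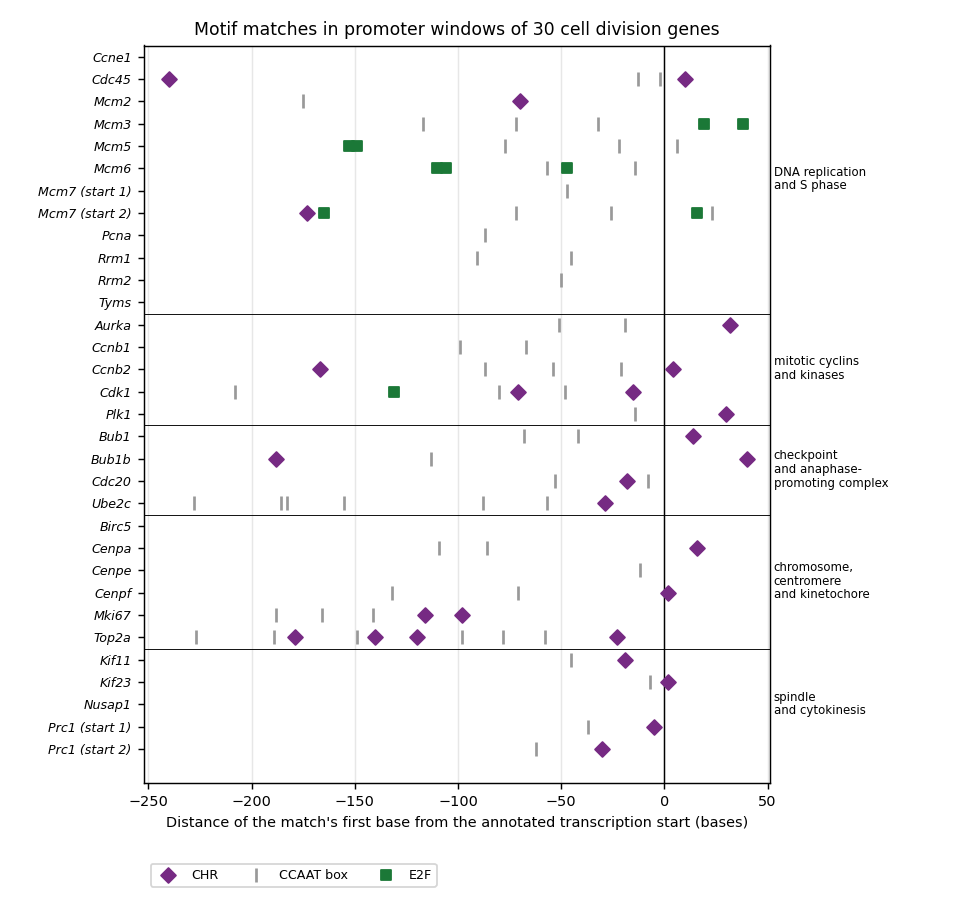
Places of 3 motifs in the promoter windows of 30 members (rows, by role; genes with 2 annotated starts have 2 rows), as the distance in bases of the leftmost matching base from the annotated start at 0. Diamonds mark CHR, grey ticks CCAAT and squares E2F on either strand; diamonds are found in most rows outside replication and squares mainly in the MCM rows.

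The next 4 genes belong to the checkpoint and the anaphase-promoting complex. The spindle checkpoint holds the anaphase-promoting complex until chromosomes are attached, and Cdc20 and Ube2c then activate it. These 4 genes summed to 5.74, 6.53 and 6.40 CPM in the H tables, 3.21, 4.07 and 3.42 in the M tables and 2.76, 2.98 and 5.24 in the L tables. The H tables lay above the other 6, and S1009 stood above the other L tables. That library owed its level to Bub1b, the checkpoint protein BubR1, which made up 72.9% of the sum there. Bub1b had 1.64, 2.61 and 2.74 CPM in the H tables, 1.16, 2.28 and 1.96 in the M tables and 2.42, 2.25 and 3.82 in the L tables, with no letter apart and a spread of 0.50.

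Bub1, the checkpoint kinase, behaved otherwise, with counts of 5, 5, 7, 0, 0, 0, 0, 0 and 0 in S1001 to S1009. It was counted in the H tables only, yet at no more than 7 counts. Cdc20, which activates the complex and is the target of the checkpoint, had 1.72, 2.00 and 1.83 CPM in the H tables, 1.53, 0.827 and 0.872 in the M tables and 0.336, 0.731 and 1.11 in the L tables. The H tables were highest, with S1004 close below, and exons of Cdc20 overlap Elovl1 on the opposite strand. Ube2c, the ubiquitin-conjugating enzyme of the complex, had counts of 24, 20, 17, 10, 14, 8, 0, 0 and 5. The letters of Ube2c did not overlap in CPM, in the order H, M and L, although its mean was under 1 CPM and Tnnc2 overlaps it on the opposite strand.

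The Ube2c window (chr2:164769679-164769978, plus strand) is shown as the clearest order of the letters among low members, with CHR in capitals. The match is TTCAAA on the strand shown, the reverse complement of TTTGAA, and lies 29 bases before the start.

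Ube2c: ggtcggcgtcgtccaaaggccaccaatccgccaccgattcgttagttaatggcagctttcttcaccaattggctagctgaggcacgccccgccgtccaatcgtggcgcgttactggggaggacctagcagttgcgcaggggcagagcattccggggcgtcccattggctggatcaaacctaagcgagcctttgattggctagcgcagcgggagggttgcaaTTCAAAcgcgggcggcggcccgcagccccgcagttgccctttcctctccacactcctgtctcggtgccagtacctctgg

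The widest differences were found among the genes of chromosome, centromere and kinetochore. These 6 genes summed to 16.9, 18.7 and 20.0 CPM in the H tables, 34.5, 29.6 and 31.8 in the M tables and 2.49, 4.57 and 2.53 in the L tables. The M tables were highest, the H tables intermediate and the L tables lowest, with no overlap. Of the 6 genes, 5 passed 2-fold, and Cenpe did not.

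Cenpf (ENSMUSG00000026605, chr1:189640606-189688086, minus strand), a large protein of the kinetochore and nuclear matrix that gathers before mitosis, had 3.28, 3.46 and 4.12 CPM in the H tables, 14.2, 11.3 and 12.3 in the M tables and 0.336, 1.28 and 0.185 in the L tables. Its counts were 40, 45, 54, 270, 164, 169, 5, 21 and 3 in S1001 to S1009. The 3 letters were fully apart, M above H above L, and the spread of 3.31 was the widest of all members. Cenpa (ENSMUSG00000029177, chr5:30666777-30674830, plus strand), the histone H3 variant that marks centromeres, showed the same order, with 6.56, 7.22 and 8.46 CPM in the H tables, 13.9, 10.8 and 11.6 in the M tables and 1.61, 1.28 and 2.03 in the L tables. Cenpa was still counted in every L table, at 24, 21 and 33 counts, and its spread was 2.27. Cenpe, the kinesin that moves chromosomes to the spindle equator, had 1.56, 1.08 and 0.915 CPM in the H tables, 1.95, 1.79 and 1.82 in the M tables and 0.471, 0.975 and 0 in the L tables. Its M tables were highest by a small margin, and H and L overlapped.

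Top2a (ENSMUSG00000020914, chr11:98992943-99024189, minus strand), the topoisomerase that untangles sister chromatids, had 1.80, 3.23 and 2.59 CPM in the H tables, 0.947, 1.93 and 2.62 in the M tables and 0 in all 3 L tables. It joined Cdk1 in having no count in any L table, while the H and M tables overlapped (spread 1.85). A small gene, Gm23451, overlaps an exon of Top2a on the same strand. Mki67 (ENSMUSG00000031004, chr7:135689784-135716361, minus strand), which encodes the proliferation antigen Ki-67 that coats mitotic chromosomes, had 2.46, 2.53 and 1.75 CPM in the H tables, 1.26, 2.62 and 1.02 in the M tables and 0.0673, 0.975 and 0 in the L tables. Within the L tables Mki67 was uneven, with 1, 16 and 0 counts, and the highest of them, S1008, was close to the lowest M table, S1006. Its spread of 1.73 became 0.84 without S1007 or without S1009, below 2-fold. Birc5 (ENSMUSG00000017716, chr11:117849251-117855743, plus strand), the survivin subunit of the chromosomal passenger complex, had 1.23, 1.23 and 2.13 CPM in the H tables, 2.26, 1.24 and 2.40 in the M tables and 0, 0.0609 and 0.308 in the L tables. All 3 L tables were below the others, and H and M overlapped.

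The windows of Top2a (chr11:99024140-99024439, minus strand), Cenpa (chr5:30666636-30666935, plus strand) and Cenpf (chr1:189688037-189688336, minus strand) are shown because these genes differed most by letter in this role, with CHR in capitals.

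Top2a: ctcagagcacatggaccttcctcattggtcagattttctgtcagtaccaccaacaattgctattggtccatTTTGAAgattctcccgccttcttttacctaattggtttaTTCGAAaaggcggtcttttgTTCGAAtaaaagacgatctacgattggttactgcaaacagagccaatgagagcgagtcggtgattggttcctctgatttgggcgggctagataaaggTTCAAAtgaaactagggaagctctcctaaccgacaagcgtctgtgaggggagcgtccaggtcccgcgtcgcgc
Cenpa: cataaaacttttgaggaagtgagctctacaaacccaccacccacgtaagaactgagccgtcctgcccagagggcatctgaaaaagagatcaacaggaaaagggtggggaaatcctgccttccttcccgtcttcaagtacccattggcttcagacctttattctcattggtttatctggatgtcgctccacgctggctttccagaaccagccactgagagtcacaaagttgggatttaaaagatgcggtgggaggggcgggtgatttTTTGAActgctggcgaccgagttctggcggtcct
Cenpf: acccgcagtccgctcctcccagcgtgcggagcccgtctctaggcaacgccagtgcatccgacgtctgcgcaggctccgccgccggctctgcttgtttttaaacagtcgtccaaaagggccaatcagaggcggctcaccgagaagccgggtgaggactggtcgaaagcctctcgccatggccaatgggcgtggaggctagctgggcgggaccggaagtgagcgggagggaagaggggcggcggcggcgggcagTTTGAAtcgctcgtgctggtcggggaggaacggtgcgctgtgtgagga

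Top2a has 4 CHR matches, and Cenpa and Cenpf have 1 each, 16 and 2 bases after the start. Cenpf and Cenpa were highest in the M tables and Top2a was not, and all 3 windows hold CHR and CCAAT. Birc5, also lowest in the L tables, has neither CHR nor CCAAT in its window.

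**Figure D4:**
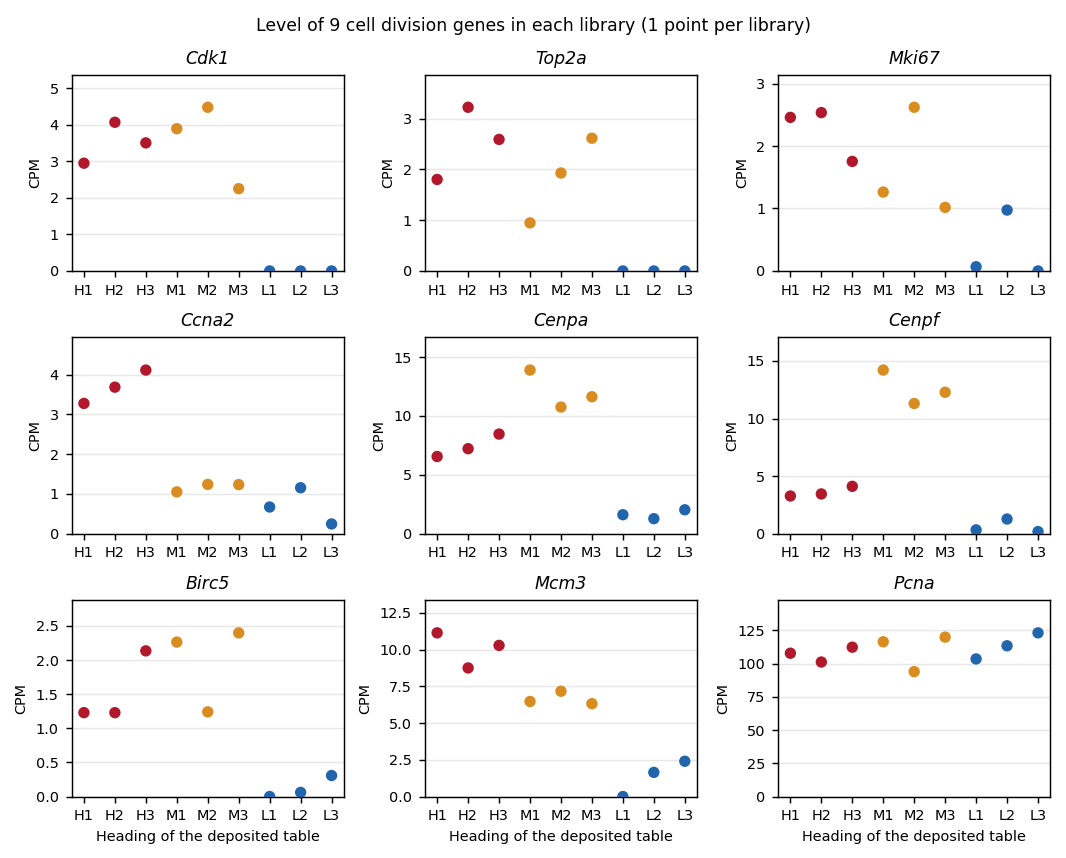
CPM of 9 members in each library, 1 point per library, with the heading of its deposited table on the x axis and CPM from 0 on the y axis. Cdk1 and Top2a are at 0 in L1 to L3, Cenpa and Cenpf are highest in M1 to M3, Ccna2 and Mcm3 are highest in H1 to H3, and Pcna is level.

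The 5 genes of spindle and cytokinesis summed to 7.95, 6.61 and 7.62 CPM in the H tables, 4.37, 5.38 and 5.81 in the M tables and 3.23, 5.36 and 2.28 in the L tables. The H tables lay above the other 6, and the M and L tables overlapped. Prc1 (ENSMUSG00000038943, chr7:80294450-80316259, plus strand), which bundles microtubules of the central spindle, had 2.79, 2.15 and 2.67 CPM in the H tables, 0.421, 0.827 and 0.581 in the M tables and 0, 1.52 and 0.924 in the L tables. The H tables were highest, S1007 had no count, and S1008 and S1009 were above all M tables. Its spread of 1.37 was 0.83 without S1002 and S1003 together, a fall that follows from the measure as for Ccna2. Rccd1 overlaps Prc1 on the opposite strand.

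Nusap1, which stabilises spindle microtubules, had 2.46, 1.84 and 3.51 CPM in the H tables, 1.47, 2.28 and 2.40 in the M tables and 1.88, 1.71 and 0.431 in the L tables, with overlapping letters. Tpx2, the activator of Aurka on the spindle, ranged from 0.686 CPM in S1003 to 1.80 CPM in S1001, and the L tables lay inside that range. Exons of Nusap1 overlap Oip5 on the opposite strand. The motor proteins were rarely counted: Kif11, which pushes spindle poles apart, had at most 5 counts in any library, and Kif23, a motor of the cytokinesis midzone, had counts of 10, 9, 8, 20, 13, 18, 0, 7 and 0. In CPM the letters of Kif23 did not overlap, but the M and H tables were parted by few counts (0.896 CPM in S1005, 0.820 CPM in S1001).

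Wider lists of the same pathway, 109 genes chosen with earlier results of these data known, were read in the same way. Of the 72 genes whose mean reached 1 CPM, 28 (38.9%) passed 2-fold, against 26.4% of all genes. Without S1005 the number was 18 of 71, close to the 23.1% of all genes that passed there. The L tables lay below all others in 12 of the 72, near the 13.6% of all genes, and the H tables above all others in 14, against 12.7% of all genes. Genes of each list are named by mean CPM, which is not corrected for length, and by spread. Among regulators of transcription, 3 of 10 passed. Tfdp1 and E2f4, partners in E2F complexes, were named by mean CPM. E2f4 had 44.0, 42.9 and 51.5 CPM in the H tables, 16.8, 18.8 and 28.1 in the M tables and 47.8, 36.9 and 51.2 in the L tables, and the M tables were lowest. Rbl1, the pocket protein p107, had 4.84, 6.45 and 3.13 CPM in the H tables, 1.68, 2.28 and 2.83 in the M tables and 0.336, 0.731 and 0.247 in the L tables, in the order H, M and L.

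Among genes of origin licensing and the replication fork, 4 of 16 passed 2-fold. Dut, which removes dUTP, was named by mean CPM and had 42.9, 41.6 and 45.1 CPM in the H tables, 52.5, 49.3 and 63.2 in the M tables and 60.7, 48.5 and 79.5 in the L tables. Its H tables were the lowest, with S1008 and S1005 not far above. Gins4, part of the active helicase, showed no letter apart, at 25.4 to 40.9 CPM. The licensing factors Cdt1 and Cdc6 had the largest spreads of that list, 1.46 and 1.27, at levels under 3 CPM and with overlapping letters.

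Of the other cyclins, kinases and CDC25 phosphatases, 7 of 14 passed. Ccnd2 and Ccnd1, the D-type cyclins of G1, lay at 59.8 to 97.9 CPM and 33.6 to 111 CPM, and their letters overlapped. Cdk6, a partner of the D-type cyclins, had 9.26, 9.22 and 8.62 CPM in the H tables, 5.47, 2.69 and 9.01 in the M tables and 0.269, 0.548 and 0.123 in the L tables. Cdk2, the partner of cyclins E and A, had 4.51, 5.76 and 3.66 CPM in the H tables, 3.47, 5.79 and 2.98 in the M tables and 0, 0.0609 and 0.0616 in the L tables. For both kinases the L tables lay far below the rest, and the H and M tables overlapped.

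Among other centromere, kinetochore and condensin genes, 5 of 17 passed. Bub3, a checkpoint protein, and Pttg1, the securin that restrains separase, were named by mean CPM, at 133 to 186 CPM and 68.0 to 109 CPM. Bub3 was highest in the L tables, by less than 2-fold. Ncaph, a condensin subunit, had 1.97, 3.53 and 3.43 CPM in the H tables, 4.00, 2.48 and 2.83 in the M tables and 0.0673, 0 and 0 in the L tables, and Spc25, of the outer kinetochore, had 5.00, 2.23 and 2.59 CPM in the H tables, 1.21, 1.45 and 1.89 in the M tables and 0, 0.0609 and 0.678 in the L tables. The L tables were lowest for both.

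Other spindle and cytokinesis genes passed in 4 of 7 cases. Cit, citron kinase, had 11.4, 10.5 and 14.3 CPM in the H tables, 37.5, 36.1 and 41.5 in the M tables and 35.3, 39.2 and 18.2 in the L tables, and its H tables were lowest, whereas Anln, anillin, ranged from 14.9 to 31.1 CPM with a spread below 2-fold. Tacc3, a spindle protein, had 4.10, 6.22 and 4.80 CPM in the H tables, 1.47, 3.72 and 3.13 in the M tables and 1.61, 3.78 and 0.555 in the L tables. Its H tables were highest, with S1008 and S1005 close below.

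Among inhibitors of division, 5 of 8 passed 2-fold, with a median spread of 2.14 over the 8. Cdkn1a, the p21 inhibitor, had 299, 250.2 and 267 CPM in the H tables, 42.2, 95.6 and 31.5 in the M tables and 24.8, 18.5 and 15.8 in the L tables, with the H tables on top and the L tables lowest. Btg2, an antiproliferative gene, had 413, 422 and 424 CPM in the H tables, 540.4, 619.6 and 451 in the M tables and 30.3, 32.2 and 10.8 in the L tables, highest in the M tables. Cdkn2d, the p19 inhibitor, was steady by comparison, at 122 to 203 CPM. Cdkn2c, the p18 inhibitor, was the gene of these lists that shared the pattern of Cdk1 and Top2a, with no count in any L table.

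**Figure D5:**
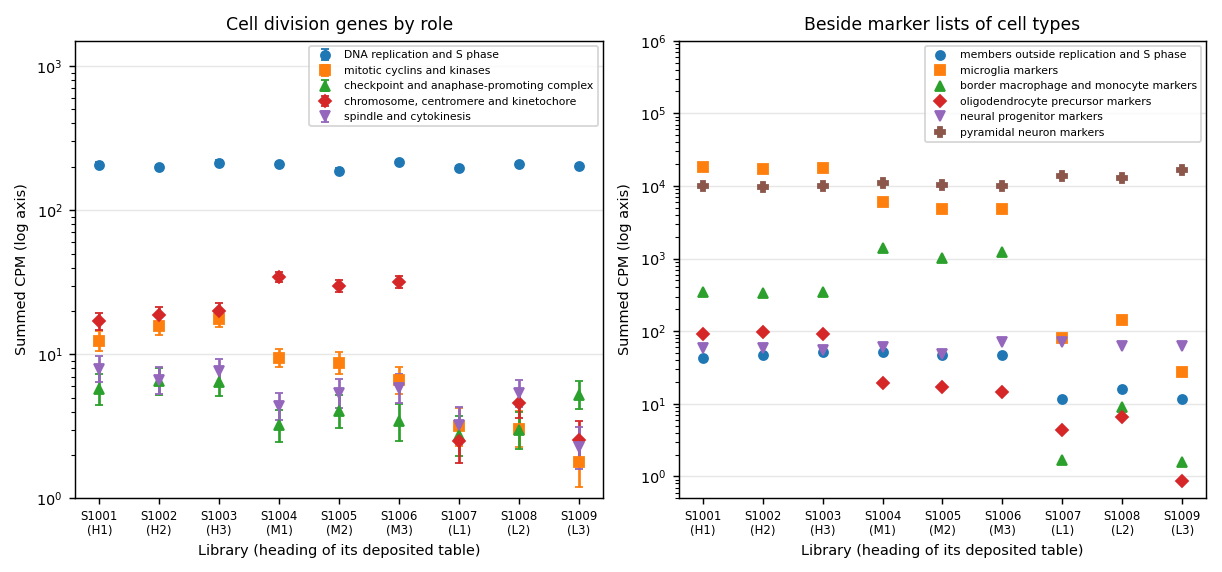
Summed CPM per library (x axis, with table headings) on log axes. Left, the 5 roles of the members, with bars for exact Poisson 95% intervals of the counts; right, the members outside replication and S phase beside marker lists of cell types. The replication genes, of whose sum Pcna makes up 50.0% or more in each library, stay between 188 and 216 CPM. The pooled other members, microglia, border macrophage and oligodendrocyte precursor markers (right) are all lowest in L1 to L3. On the left, the checkpoint role and the spindle role overlap between L1 to L3 and M1 to M3.

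Markers of the labelled cell type and of other cells were read in the same libraries. The 7 markers of pyramidal neurons were present in every library and summed to 9730 to 16542 CPM, highest in the L tables. The 13 microglia markers summed to 18453, 17009 and 17655 CPM in the H tables and 6079.7, 4755 and 4848 in the M tables. In the L tables they summed to 79.6, 144 and 27.5 CPM. The L tables lay below all others in 12 of the 13, against 13.6% of all genes, with Itgam at 0 in S1008. The exception was Tmem119, at 224 to 238 CPM in the H tables. Its M and L tables overlapped, with 1.84 CPM in S1004 and 2.44 CPM in S1008. In the M tables C1qc alone made up 27.4% to 29.7% of the microglia sum, which says little of Tmem119 there. The 7 markers of border macrophages and monocytes summed to 346, 335 and 347 CPM in the H tables, 1393, 1034 and 1243 in the M tables and 1.68, 9.14 and 1.60 in the L tables. The sum and 5 of the 7 markers were highest in the M tables, the order seen for Cenpa and Cenpf. The other 2, Ccr2 and Ly6c2, were highest in the H tables, and Ly6c2 was at 0 in all M and L tables. The 7 oligodendrocyte precursor markers summed to 91.6, 96.6 and 91.7 CPM in the H tables, 19.2, 17.1 and 14.4 in the M tables and 4.31, 6.64 and 0.863 in the L tables, with Cspg4 at 0 in all 3 L tables.

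The 8 lymphocyte markers summed to 40.9 to 46.5 CPM in the H tables, 3.47 to 4.90 in the M tables and at most 0.0673 in the L tables, where all 8 were at 0 in S1008 and S1009. The 6 plasma cell markers summed to 3513 to 3657 CPM in the H tables, mostly Igkc, and to 196 to 389 CPM elsewhere, mostly Xbp1, with Mzb1 at 0 in all M tables. Tnfrsf17 went the other way, highest in the M tables by a narrow margin. It had 6.21, 3.24 and 3.13 CPM there, 2.29 to 3.11 in the H tables and 0 in all L tables. Mature oligodendrocyte markers, 8 in number, summed to 597 to 621 CPM in the H tables, 93.3 to 155 in the M tables and 31.7 to 60.5 in the L tables, with none at 0. The 9 markers of neural progenitors and immature neurons, in contrast, summed to 58.8, 59.6 and 55.2 CPM in the H tables, 61.4, 48.6 and 71.6 in the M tables and 70.6, 63.2 and 62.0 in the L tables. The letters overlapped in this sum, of which Neurod1 alone made up 34.6% (S1005) to 74.5% (S1009). Nes, Igfbpl1 and Eomes had under 1 CPM in every library, so the sum says little of them. Hopx was the 1 marker of the 9 with a letter apart, at 3.03, 2.30 and 2.13 CPM in the H tables, 3.90, 5.72 and 2.25 in the M tables and 0.202, 0.792 and 0.801 in the L tables, and Eomes was at 0 in 5 libraries and near 0 in the others.

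Astrocyte markers, 8 in number, summed to 117 to 425 CPM with overlapping letters. Slc1a2 alone made up 37.8% (S1001) to 58.6% (S1007) of this sum, which thus says little of the others, and 6 of the 8 passed 2-fold. Gfap was highest in the H tables, at 38.96 to 44.58 CPM, and lowest in the L tables, at 4.71 to 9.38 CPM. Slc1a3 was highest in the H tables and S100b in the M tables, both by a narrow margin. The remaining astrocyte markers had no letter apart. The 7 inhibitory neuron markers summed to 275 to 321 CPM in the H tables and to 468 to 1769 CPM elsewhere. Pvalb among them was at 0 in S1009. The 6 endothelial and mural markers summed to 11.2, 12.4 and 9.68 CPM in the H tables, 26.5, 22.5 and 39.2 in the M tables and 14.2, 13.5 and 5.61 in the L tables. The M tables were highest here too, by the sum and by the pericyte markers Rgs5 and Vtn, and Rgs5 alone made up 64.8% to 98.6% of the sum. The other markers did not share this order. Pdgfrb had 0.579, 0.276 and 0.363 CPM in the M tables and 0, 0.914 and 0.863 in the L tables. Pecam1 was highest in the H tables, and Cldn5 was at 0 in 7 libraries. The part that any of these cell types had in the levels of the division genes was not tested.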

How the data were processed

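RNA of 9 libraries of sorted hippocampal cells was sequenced. Each deposited table holds, per gene, the unscaled count and the authors' FPKM (the count per length and library total), per the file headers. Build mm10 and the tools HTSeq 0.6.1, HISAT2 2.0.1, Trimmomatic 0.30 and bcl2fastq 2.17.1.14 are listed in the submitters' processing notes. Roles of the tools, strand setting and annotation release: not given in the sources used here. Symbols and coordinates came from GENCODE M21 (99.46% of identifiers matched).

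The labels give 0 of 9 libraries a dose, so replicate numbers are names and no test between groups was made. The members, roles, wider lists, markers and thresholds were chosen with earlier results of these data known. Counts were scaled to CPM with edgeR 4.0.16 TMM factors in R 4.3.3. Values were taken as log2(CPM + 1), a pseudocount of 1 CPM, in genes whose mean reached 1 CPM. The range left after dropping a gene's highest and lowest library was set against 2-fold, and its calculation was tested on simulated data. Each summed count has an exact Poisson 95% interval. Levels of members were compared per length in the authors' FPKM, and genes of the wider lists were named by mean CPM. Every member is named. Of each wider list, those 2 with the highest mean and the 2 with the largest spread are named, and marker lists are given as sums. Cdkn2c was named after its values were seen. Alternatives covered pseudocounts, minimum means, the full range, leaving out libraries, and scaling by library totals, by DESeq2 1.42.0 or without mitochondrial genes. Calculations used Python 3.11.15, numpy 2.4.6, pandas 2.3.3 and scipy 1.17.1.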

Additional observations from a re-analysis of the deposited data

Results flagged for a closer look

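Among 33 series of 9 library values checked for a single value far from the others, 1 was met: Mcm4, a subunit of the replicative helicase, was lowest in S1004, and the gap to the next library was 0.517 of its whole range on the log2 scale, above the critical value of 0.493 for 9 values. Chance alone gives such a value in about 1 in 20 series, so 1 among 33 is no more than it would give. The critical value holds for 9 values of one kind, whereas tables of different letters differed widely. Mcm4 had 121 counts in S1004, or 6.37 CPM, against 9.08 to 12.5 CPM in the other 8 libraries.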

How the results depend on the processing

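With 5 CPM as pseudocount, 3 members in place of 10 and 8 of the wider pathway genes in place of 28 passed 2-fold, of 27 and 72, as did 13.2% of all genes, so that neither share exceeded that of all genes. Where the mean had to reach 10 CPM, 0 of 4 members and 7 of 26 pathway genes passed, against 18.3% of all genes, and 1 member had a letter apart in place of 15; these are counts of fewer genes, with no p-value behind them. Over the whole range from lowest to highest library, 20 members and 55 pathway genes passed, as did 52.6% of all genes. Leaving out single libraries gave 9 to 11 members, 18 to 27 pathway genes (18 without S1005) and 16 to 18 members with a letter apart. For members with a letter apart, no share of all genes was counted. Without S1002 and S1003 together, 8 members and 18 pathway genes passed, and 19.6% of all genes. This setting leaves 1 H table, which the trimmed spread drops in any gene where it is highest or lowest. The ratio of the highest to the lowest summed level of all members was 1.28 (1.22 to 1.34 by counting error), 1.35 on library totals and 1.69 without Pcna. The cause of these shifts was not tested beyond the settings' own construction. Of 463 single-member values under alternatives, 438 kept their side of 2-fold and 25 did not. Scalings moved the median of all genes by at most 0.061 on the log2 scale. No paired analysis was possible because the labels put no library in a group, so no replicate numbers are shared between groups. The depth limits the 8 members under 1 CPM most: orders of the letters that rest on a few counts, as for Ccnb2 and Kif23, are within counting error.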
